A study of Mus musculus with 12 samples.

Results

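Natural killer (NK) receptors and their signalling adaptors were followed in CD8+ T cells, the cytotoxic T lymphocytes, across the circadian cycle. The 10 genes were chosen by symbol out of 50600 gene identifiers and fall into 3 groups. Klrd1, Klrk1 and Klrc1 are receptor genes that CD8+ T cells share with NK cells, Ncr1, Klrb1c, Klre1, Klra4 and Klra8 are 5 receptor genes of which NK cells are the textbook source, and Tyrobp and Fcer1g are 2 adaptor genes. Polyadenylated RNA came from CD8+ T cells of lymph nodes of male C57BL/6J mice, 8 weeks old and held in constant darkness, on day 2 and day 1 of collection. Each day had 1 library at each of the circadian times (CT) 2, 6, 10, 14, 18 and 22 h, so there were 12 libraries, and the number of mice behind a library is not in the labels. No mutation or drug treatment is named in the labels.

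NK receptors read the surface of a target cell and either restrain or trigger killing. CD94, the product of Klrd1, pairs with NKG2A, the product of Klrc1, to form an inhibitory receptor for the non-classical class I molecule Qa-1. NKG2D, the product of Klrk1, is an activating receptor for stress-induced ligands. NKp46 (Ncr1) is an activating receptor widely used to define NK cells. NK1.1 (Klrb1c) is an activating receptor and the classical NK cell marker of C57BL/6 mice. Ly49D (Klra4) and Ly49H (Klra8) are activating receptors, Ly49H for a protein of mouse cytomegalovirus, and Klre1 encodes a lectin-like receptor of NK cells. DAP12 (Tyrobp) and the Fc receptor gamma chain (Fcer1g) carry the activation motif that several of these receptors lack, and macrophages, monocytes and neutrophils use both adaptors as well. Memory CD8+ T cells take up Klrd1, Klrc1 and Klrk1, and some of them also take up receptors more usual on NK cells.

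Of the 10 genes, 7 lie on chromosome 6, where the lectin-like receptor genes are clustered. In GENCODE release M21 of the mouse build GRCm38, Klrd1 (ENSMUSG00000030165.16) lies at chr6:129591782-129598775 on the plus strand. Klrk1 (ENSMUSG00000030149.15) at chr6:129610323-129623864 and Klrc1 (ENSMUSG00000030167.15) at chr6:129666015-129678973 are on the minus strand. Ncr1 (ENSMUSG00000062524.4) lies at chr7:4337724-4345164 and Tyrobp (ENSMUSG00000030579.10) at chr7:30413760-30417585, both on the plus strand, and Fcer1g (ENSMUSG00000058715.11) at chr1:171229572-171234365 on the minus strand. Klrb1c, Klre1, Klra4 and Klra8 (ENSMUSG00000030325.16, ENSMUSG00000050241.8, ENSMUSG00000079852.4 and ENSMUSG00000089727.2) lie at chr6:128778485-128789215, chr6:129577905-129585827, chr6:130043731-130067271 and chr6:130115226-130129898, and Klre1 alone of these 4 is on the plus strand. All 10 are protein-coding, and a count here is a count over the exons of the gene.

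The promoters of Ncr1, Klrk1 and Klrc1 are shown because the last 2, both shared receptors, correlated with the NK-restricted Ncr1 over all libraries. As given below, the relation of Klrk1 rests on CT10 of day 1 and CT2 of day 2, and that of Klrc1 was lost without CT10 of day 1. Klrb1c, which correlated with Ncr1 as well, is not shown. Each run is the 250 bases upstream of the RefSeq transcript start on GRCm38.p6, 5′ to 3′ on the gene's strand, and capitals mark the letters TGTGGT or their reverse complement ACCACA, a core that RUNX factors bind. Ncr1 is at chr7:4337465-4337714 (plus strand), Klrk1 at chr6:129623865-129624114 and Klrc1 at chr6:129678974-129679223 (minus strand).
Ncr1: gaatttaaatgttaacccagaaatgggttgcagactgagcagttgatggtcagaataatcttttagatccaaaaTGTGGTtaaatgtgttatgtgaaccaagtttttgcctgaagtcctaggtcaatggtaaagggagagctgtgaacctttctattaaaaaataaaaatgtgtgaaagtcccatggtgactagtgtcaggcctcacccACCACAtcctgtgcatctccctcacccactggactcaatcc
Klrk1: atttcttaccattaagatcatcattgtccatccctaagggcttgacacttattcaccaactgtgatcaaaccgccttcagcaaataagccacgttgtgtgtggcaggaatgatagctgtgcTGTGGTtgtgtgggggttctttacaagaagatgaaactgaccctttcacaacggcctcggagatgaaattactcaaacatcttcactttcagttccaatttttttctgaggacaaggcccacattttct
Klrc1: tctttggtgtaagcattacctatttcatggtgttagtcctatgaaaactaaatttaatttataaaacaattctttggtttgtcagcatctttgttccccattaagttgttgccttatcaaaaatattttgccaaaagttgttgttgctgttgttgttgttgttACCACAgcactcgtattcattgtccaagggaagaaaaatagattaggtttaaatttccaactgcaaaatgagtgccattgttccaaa
Of the 8 genes with a RefSeq promoter entry, 5 (Ncr1, Klrb1c, Klre1, Klrk1 and Klrc1) held these letters on either strand in at least 1 entry, and Klra4, Klra8 and Fcer1g did not. By entry it was 6 of the 11 of these genes, and of all 32851 promoters of the same length 14.0% held them. The T-box core GGTGTG, or CACACC on the other strand, was in 0 of the 11 entries of these 8 genes and in 16.3% of all promoters. A match is a match of letters and does not show binding.

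Klrc1 has a neighbour with which it shares stretches of sequence, Klrc2, which encodes NKG2C, an activating partner of CD94. The start of the 2 coding sequences (GENCODE M21 transcripts, minus strand of chromosome 6) is shown because reads there can be told apart, and the last 90 bases before the stop codon because reads there cannot. Capitals mark bases that differ or are missing in the other gene over the first 90 aligned positions, of which 38 differ.
Klrc1 start: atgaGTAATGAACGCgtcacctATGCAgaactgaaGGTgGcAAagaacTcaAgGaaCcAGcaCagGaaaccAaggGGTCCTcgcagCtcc
Klrc2 start: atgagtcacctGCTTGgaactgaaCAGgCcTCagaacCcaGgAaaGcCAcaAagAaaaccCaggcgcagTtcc
Klrc1 end: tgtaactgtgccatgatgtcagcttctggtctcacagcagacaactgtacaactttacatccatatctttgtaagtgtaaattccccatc
Klrc2 end: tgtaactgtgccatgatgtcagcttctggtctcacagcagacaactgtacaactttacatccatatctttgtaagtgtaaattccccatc
The last 90 bases had 0 differences, and the aligned coding sequences were 81.0% identical. Of the 50-base windows of the Klrc1 transcripts, 36.6% also occurred in Klrc2. Klra8 shared 33.1% of its windows with other genes, most of them with the pseudogene Klra14-ps, Klrb1c shared 17.0%, Klra4 4.68% and Klre1 0.28%, and the other 5 genes shared 0%. Counts of Klrc1, Klra8, Klrb1c and Klra4 are therefore uncertain where reads fall in shared stretches. RSEM, which divides such reads among genes, gave a median of 1.03 times the count for Klrc1, 0.82 for Klra8, 1.42 for Klrb1c and 0.67 for Klra4. For genes without shared windows it also differed from the count, with 0.72 for Klrd1, 0.88 for Ncr1 and 1.03 for Klrk1.

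The libraries held 24689964 to 33497078 counts on genes. CPM, the level used here, divides each count by its library's total after adjustment with a TMM factor, and values in TPM are per transcript length. The 10 genes were therefore ranked by level in TPM, while sums of CPM over genes and ratios of CPM to Ncr1 also depend on transcript length. T cell genes were high in all libraries, with Cd8a between 1234 and 1613 CPM and Cd3e between 474 and 607 CPM. Of 16396 genes with enough counts to test, 13% had their lowest level in CT10 of day 1, and 10.2% had their 2 lowest levels in CT10 of day 1 and CT2 of day 2. These 2 libraries stood apart for most of the genes described here, so results that rest on them are also given without them.

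Klrd1 was by far the most abundant of the receptors. It averaged 246.7 ± 21.6 TPM (SD, n = 12) and made up 74.0% to 83.5% of the summed TPM of the 8 receptor genes. Klrk1 followed with 29.9 ± 4.59 TPM and Klrc1 with 13.1 ± 2.13 TPM. The NK-restricted genes Ncr1, Klre1 and Klrb1c had 9.06 ± 1.92, 8.44 ± 1.60 and 8.21 ± 1.51 TPM, and Klra8 and Klra4 had 3.96 ± 1.02 and 2.38 ± 0.59 TPM. The adaptors stood between Klrd1 and Klrk1, Tyrobp with 150.02 ± 41.02 TPM and Fcer1g with 68.2 ± 25.7 TPM. The order of neighbours in this ranking held in 12 of 12 libraries for 7 of the 9 neighbouring pairs. Ncr1 was above Klre1 in 9 of 12 libraries, and Klre1 above Klrb1c in 9 of 12, so these 3 genes had no firm order. Every gene was detected in every library, and the fewest counts were the 43 of Klra4 in CT10 of day 1.

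**Figure D1:**
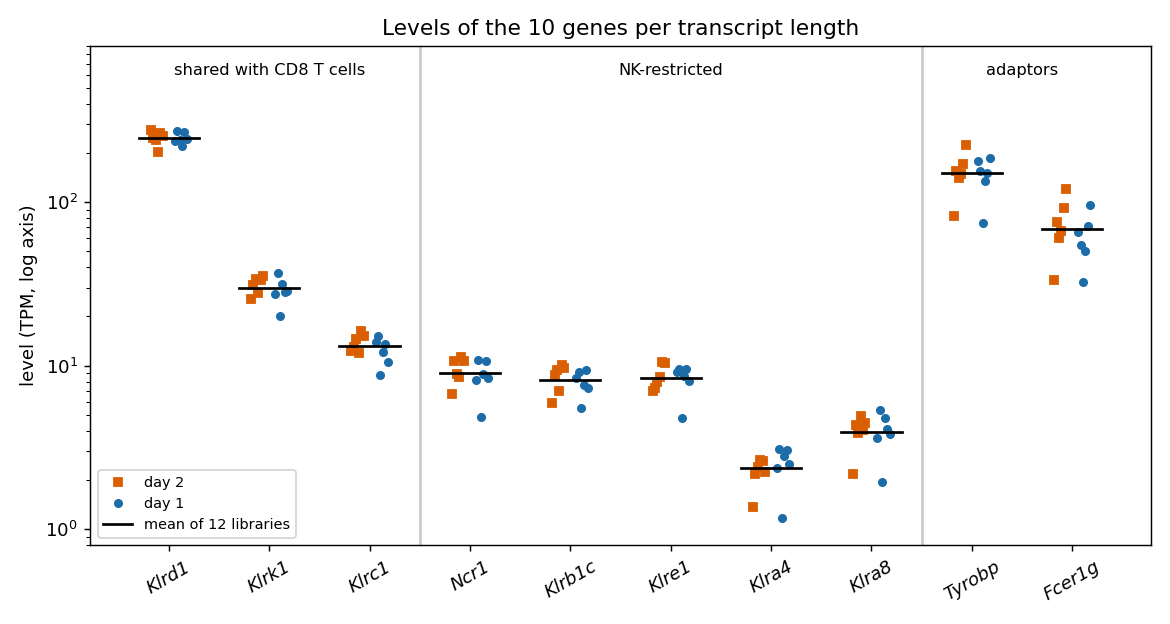
Level of each gene in TPM on a log axis, with 1 point per library (squares for day 2, circles for day 1) and a bar at the mean of the 12 libraries. Klrd1 lies above 200 TPM in all libraries, and the 5 NK-restricted genes lie below 12 TPM in all.

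The shared receptor Klrd1 was also the steadiest. In order of circadian time, day 2 before day 1, it had 204 and 199 CPM at CT2, 177 and 195 CPM at CT6, 181 and 183 CPM at CT10, 150.1 and 158 CPM at CT14, 188 and 189 CPM at CT18 and 177 and 176 CPM at CT22. Both CT14 libraries were its lowest and both CT2 libraries its highest. Day 2 was 0.910 times day 1 at CT6 (95% counting interval 0.875 to 0.946) and 0.949 times at CT14 (0.913 to 0.987). At the other times the days were close, with an interval that included a ratio of 1. In TPM both CT14 libraries were again its lowest, with 203 on day 2 and 222 on day 1. CT2 had 277 TPM on day 2 and 236 TPM on day 1, and CT2 of day 1 was below all but the CT14 libraries, so its place as the highest time and the closeness of the days there hold in CPM and not in TPM. Its coefficient of variation over the libraries was 8.62%, or 8.504% after counting error was taken out, and its highest library was 1.36 times its lowest.

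Klrk1 and Klrc1 varied more. Klrk1 had 29.1 and 38.9 CPM at CT2 on day 2 and day 1, 36.6 and 42.2 CPM at CT6, 40.3 and 24.1 CPM at CT10, 35.3 and 36.8 CPM at CT14, 39.0 and 35.1 CPM at CT18 and 38.8 and 34.6 CPM at CT22. CT10 of day 1 and CT2 of day 2 were its 2 lowest libraries, and the other 10 lay between 34.6 and 42.2 CPM. Klrc1 had 11.2 and 13.9 CPM at CT2 on day 2 and day 1, 10.9 and 13.4 CPM at CT6, 11.2 and 7.39 CPM at CT10, 10.1 and 10.6 CPM at CT14, 13.7 and 11.9 CPM at CT18 and 12.4 and 9.94 CPM at CT22. It was lowest in CT10 of day 1, with CT2 of day 2 inside the range of the others. Their coefficients of variation were 13.9% and 16.3%.

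Ncr1, the defining NK receptor, had 8.22 and 11.6 CPM at CT2 on day 2 and day 1, 12.7 and 12.6 CPM at CT6, 11.4 and 5.91 CPM at CT10, 11.3 and 11.3 CPM at CT14, 13.5 and 12.7 CPM at CT18 and 12.3 and 10.5 CPM at CT22. The 2 low libraries stood below all others, which lay between 10.5 and 13.5 CPM. In a bulk sample a lower level of such a gene can mean fewer cells that express it or less RNA of it per cell, and these cannot be told apart. Klrb1c had its lowest level, 6.09 CPM, in CT10 of day 1 and its highest, 11.1 CPM, in CT18 of day 2, with a median of 9.18 CPM. Klre1 had its lowest, 6.23 CPM, in the same library and its highest, 14.0 CPM, in CT2 of day 1, with a median of 10.96 CPM. The Ly49 genes were low throughout. Klra4 ranged from 1.52 to 4.06 CPM with a median of 3.39 CPM, and Klra8 from 2.05 to 5.45 CPM with a median of 3.95 CPM, both with the lowest value in CT10 of day 1. The 5 genes had coefficients of variation from 18.3% to 25.8%, or from 17.1% to 23.8% after counting error was taken out.

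The adaptors varied most. Tyrobp had 34.2 and 86.0 CPM at CT2 on day 2 and day 1, 62.4 and 62.1 CPM at CT6, 58.0 and 30.9 CPM at CT10, 63.6 and 54.7 CPM at CT14, 68.3 and 60.5 CPM at CT18 and 87.9 and 76.8 CPM at CT22. Fcer1g had 16.2 and 36.4 CPM at CT2 on day 2 and day 1, 35.2 and 25.1 CPM at CT6, 29.1 and 15.6 CPM at CT10, 32.3 and 24.6 CPM at CT14, 42.2 and 32.8 CPM at CT18 and 54.8 and 45.5 CPM at CT22. Both adaptors were lowest in CT10 of day 1 and CT2 of day 2 and highest in CT22 of day 2. Their coefficients of variation were 27.95% and 35.5%, and the highest library was 2.84 and 3.51 times the lowest.

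**Figure D2:**
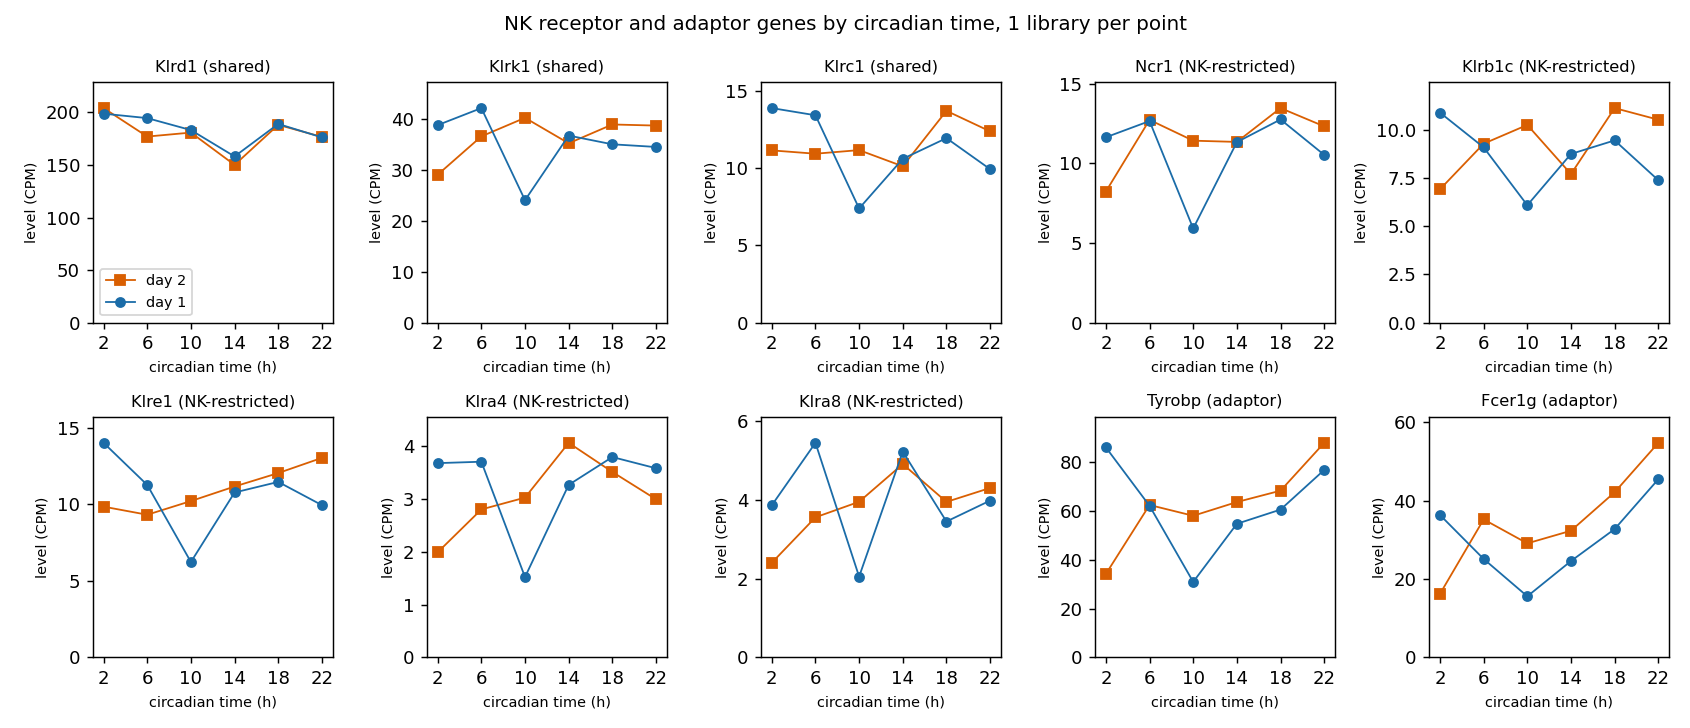
Level of each gene in CPM against circadian time in hours, with squares for day 2 and circles for day 1, 1 library per point, lines joining the times of 1 day and all axes starting at 0. Klrd1 dips at CT14 on both days, while the other 9 genes have their lowest point in CT10 of day 1.

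Summed over genes, the 3 shared receptors ranged from 195.5 to 251.6 CPM, 1.29-fold, and the 5 NK-restricted receptors from 21.8 to 44.1 CPM, 2.02-fold. The adaptors spanned 3.07-fold. Since Klrd1 holds most of the first sum, the narrow span is that of Klrd1. In all, 9 of the 10 genes were lowest in CT10 of day 1, against 13% of all tested genes, and 7 of the 10 (Ncr1, Klrb1c, Klra4, Klra8, Klrk1, Tyrobp and Fcer1g) had CT10 of day 1 and CT2 of day 2 as their 2 lowest, against 10.2% of all. Some other cell markers moved with the same libraries, and others did not. All 14 monocyte and macrophage markers had these as their 2 lowest libraries, and their summed level ranged from 323 to 1379 CPM. Of 12 other NK and innate lymphocyte markers 6 did so, with a sum from 267 to 353 CPM. The largest parts of that sum were Eomes and Prf1, at a mean of 102.7 and 102.3 CPM, and neither did so. Eomes was highest in CT2 of day 2, at 111.2 CPM, and lowest in CT10 of day 1, at 90.5 CPM. Of 7 dendritic cell markers 6 did so, with a sum from 487 to 579 CPM. The sum of the dendritic cell markers is mostly Ccr7, which averaged 360.4 CPM and is the 1 of the 7 that did not. Of 4 CD4 T cell markers 3 did (Cd4, Foxp3 and Zbtb7b), with a sum from 48.3 to 89.0 CPM, and of 6 neutrophil markers 4, with a sum from 11.5 to 102 CPM. None of the 7 markers of CD8+ and all T cells did. Nor did any of 5 B cell, 6 NKT and gamma-delta T cell, and 5 mast cell and basophil markers. Of 3 tested stromal and endothelial markers 1 did. No marker list had a gene at 0 in all libraries. The part of these cells in the levels of the 10 genes was not tested.

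The study was about transcripts that cycle with the time of day. The 24 h test fitted a wave of 24 h to all 12 libraries, and 0 of the 10 genes passed, where 0% of 16396 genes did (edgeR's quasi-likelihood F test, Benjamini-Hochberg adjusted). An unadjusted p under 0.05 was found for 2 of 10, Klrd1 and Fcer1g, and for 13.3% of all tested genes, and DESeq2 called 0 of the 10 and 246 of the 16396 genes. Klrd1 had an amplitude, the distance from the mean to the peak, of 0.12 ± 0.04 log2 (SE) with a fitted peak at 2.16 h (adjusted p = 0.336). Fcer1g had 0.45 ± 0.15 log2 with a peak at 21.1 h (adjusted p = 0.323). The other adaptor, Tyrobp, had 0.31 ± 0.14 log2 with a peak at 21.9 h. Among the NK-restricted receptors the amplitudes were 0.12 ± 0.11 log2 for Ncr1, 0.09 ± 0.10 for Klrb1c, 0.21 ± 0.09 for Klre1, 0.20 ± 0.14 for Klra4 and 0.12 ± 0.15 for Klra8. Klrk1 had 0.03 ± 0.08 and Klrc1 0.16 ± 0.09 log2. With 1 library left out the amplitude, taken along the peak fitted to all 12, ranged from 0.0045 to 0.18 log2 for Ncr1, 0.011 to 0.17 for Klrb1c, 0.11 to 0.27 for Klre1, 0.11 to 0.31 for Klra4, 0.031 to 0.24 for Klra8, -0.064 to 0.081 for Klrk1 and 0.074 to 0.22 for Klrc1. Without both CT14 libraries that of Klrd1 had a size of 0.05 ± 0.04 log2 (adjusted p = 0.817, edgeR). Fcer1g passed with no filter on low counts (adjusted p = 0.0362 in edgeR, where 323 of 29911 genes were called). It also passed without both CT2 libraries (0.55 ± 0.11 log2, adjusted p = 0.0396 in edgeR, where 431 genes were called), and Tyrobp passed without CT10 of day 1 and CT2 of day 2 (0.29 ± 0.05 log2, adjusted p = 0.0469, where 74 were called). The median amplitude was 0.14 log2 over the 10 genes and 0.10 log2 over all tested genes. In simulated counts, waves were given to genes drawn at random from those of at least 5 CPM, each with its own level and spread. A wave of 0.2 log2 was recovered in 22% of 50 genes and one of 0.4 log2 in 90%. In such genes, waves of the size fitted for most of the receptors would often be missed. Klra4 and Klra8 lie below 5 CPM on average, and recovery for the 10 genes themselves was not simulated. The simulated counts varied independently between genes, without libraries that deviate in many genes at once, so recovery in the real libraries may be lower.

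Without an assumed shape, the test of the 6 circadian times also passed 0 of the 10 genes, where 0.256% of all genes passed (edgeR, adjusted p under 0.05). At an unadjusted p under 0.05 there was 1, Klrd1, where 12.7% of all genes were. Klrd1 averaged 201.5 ± 3.75 CPM at CT2 and 154 ± 5.67 CPM at CT14 (SD, n = 2), a 1.31-fold span, with an adjusted p of 0.127 in edgeR's test. DESeq2 called 1 of the 10, Klrd1, with an adjusted p of 0.0013, and it called 516 of 16396 genes in all. In edgeR's test Klrd1 also passed when both CT2 libraries were left out, where 527 of 16275 genes did. Its adjusted p ran from 0.0013 to 0.69 over all alternatives run. It was 0.69 without both CT14 libraries, so the differences between times of Klrd1 rest on CT14, and 0.638 in log2(TPM + 0.5) with limma. Leaving out either CT2 library alone, or CT10 of day 1 with CT2 of day 2, leaves 1 library at such a time, so calls of this test there are not given. With no filter on low counts 5 of the 10 passed, Ncr1, Klra8, Klrd1, Tyrobp and Fcer1g, where 2146 of 29911 genes did. For the other 9 genes the lowest mean was at CT10, where the 2 days were far apart. Ncr1 had 8.66 ± 3.89 CPM at CT10 and 13.1 ± 0.50 CPM at CT18 (SD, n = 2), and Fcer1g had 22.4 ± 9.56 CPM at CT10 and 50.1 ± 6.57 CPM at CT22.

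Between the days, 0 of the 10 genes passed the day test, where 0% of all genes passed by edgeR, and 0 of the 10 had an unadjusted p under 0.05, where 1.82% of all genes did. DESeq2 called 0 of the 10 and 6 of the 16396 genes. Without CT10 of day 1 and CT2 of day 2 Fcer1g passed, 0.39 ± 0.06 log2 higher on day 2 (adjusted p = 0.0238, edgeR), where 16 of 16912 genes passed. The log2 difference of day 2 from day 1 over all 12 libraries ranged from -0.09 ± 0.21 for Klra4 to 0.26 ± 0.21 for Fcer1g. On day 2 Ncr1 averaged 11.6 ± 1.83 CPM, against 10.8 ± 2.54 CPM on day 1, and Klrd1 averaged 179.5 ± 17.7 CPM, against 183 ± 14.7 CPM on day 1 (SD, n = 6). The average hides opposite steps at single times. At CT2, 9 of the 10 genes were lower on day 2 than on day 1 with a counting interval that excludes a ratio of 1, down to 0.397 for Tyrobp (95% counting interval 0.368 to 0.429). At CT10 the same number were higher on day 2, up to 1.99 for Klra4 (1.37 to 2.89) and 1.93 for Ncr1 (1.596 to 2.34). Klrd1 had 1.03 at CT2 (0.989 to 1.07) and 0.987 at CT10 (0.948 to 1.03). These intervals cover counting error only. Same-time libraries differed beyond counting error over genes in general. The chi-square per degree of freedom was 40.2 at CT2 (15238 genes) and 7.62 at CT10 (15142 genes). The share of all tested genes with such intervals was not counted. The test of a different 24 h wave between the days passed 0 of the 10 genes in edgeR, with 0 of 10 at an unadjusted p under 0.05, where 4.44% of all genes were, and 0 by DESeq2.

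Whether the shared receptors vary with the NK-restricted ones was asked with correlations of log2 CPM over the 12 libraries, 9 relations in all, each with two-sided permutation p-values. Klrk1 went with Ncr1 at Pearson r = 0.93 (adjusted permutation p = 0.00259, unadjusted 0.00115) and Spearman rho = 0.59 (adjusted permutation p = 0.0812, unadjusted 0.0451). Without CT2 of day 2 and CT10 of day 1, the libraries farthest from the median of Ncr1, r was 0.38 (permutation p = 0.278, n = 10), so the relation rests on these 2 libraries. Within day 2 and day 1, each of which holds 1 of these 2 libraries, r was 0.88 and 0.94 (permutation p = 0.0653 and 0.0319, n = 6). Klrc1 went with Ncr1 at r = 0.80 (adjusted permutation p = 0.00754, unadjusted 0.00576) and rho = 0.71 (adjusted permutation p = 0.0303, unadjusted 0.0135), and r was 0.67 without the 2 libraries (permutation p = 0.0374, n = 10). In day 2 alone it was 0.43, against 0.90 in day 1. Without CT10 of day 1 alone r was 0.46, and the relation no longer passed.

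Klrd1 had r = -0.12 with Ncr1 (adjusted permutation p = 0.689, unadjusted 0.689) and rho = 0.18 (adjusted permutation p = 0.573, unadjusted 0.573). The sign depended on the libraries and the scale, with r = 0.46 without the 2 libraries (permutation p = 0.182, n = 10), 0.24 in log2 TPM, and -0.41 and 0.12 within day 2 and day 1. In CT10 of day 1 Klrd1 stood at 31.0 times the CPM of Ncr1, against a median of 15.1 times, while Klrk1 stood at 4.08 times, against a median of 3.27 times. The difference between the correlations of Klrd1 and of Klrk1 was not tested. Permutations treat the libraries of 1 time as independent, so all these p-values may be too small.

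**Figure D3:**
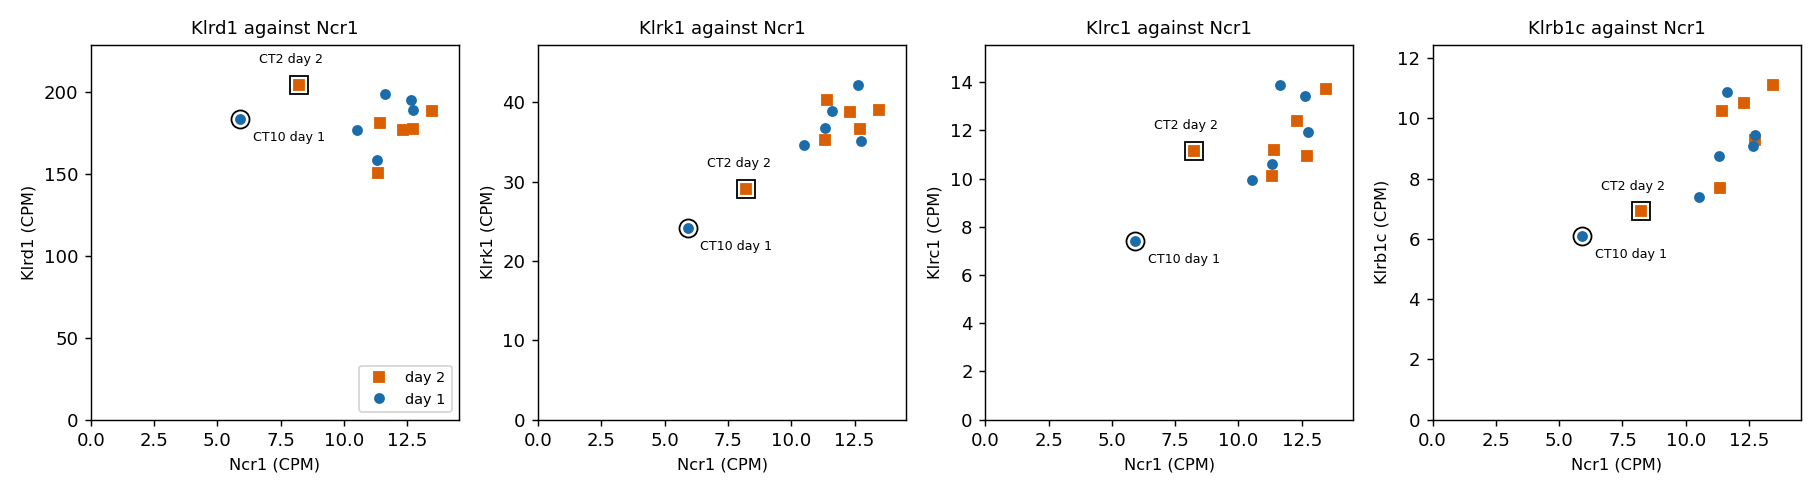
CPM of Klrd1, Klrk1, Klrc1 and Klrb1c on the vertical axis against CPM of Ncr1 on the horizontal axis, 1 library per point, squares for day 2 and circles for day 1, with rings around CT2 of day 2 and CT10 of day 1. Klrk1 is low with Ncr1 in both ringed libraries, and Klrd1 is not.

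Among the NK-restricted receptors, Klrb1c went with Ncr1 at r = 0.83 (adjusted permutation p = 0.00099, unadjusted 0.00033) and rho = 0.80 (adjusted permutation p = 0.00804, unadjusted 0.00268), and r was 0.62 without the 2 libraries (permutation p = 0.0604, n = 10), 0.83 within day 2 and 0.85 within day 1. Klra4 and Klra8 had r = 0.85 (adjusted permutation p = 0.00472, unadjusted 0.00262) and rho = 0.497 (adjusted permutation p = 0.137, unadjusted 0.107). Without the 2 libraries r was 0.26 (permutation p = 0.455, n = 10), so this relation rests on them too. In day 2 alone it was 0.94, and in day 1 alone 0.81, where each day holds 1 of the 2 libraries. Over the 10 pairs of NK-restricted genes r ranged from 0.55 to 0.87, and with these 5 genes Klrk1 ranged from 0.80 to 0.93, Klrc1 from 0.53 to 0.89 and Klrd1 from -0.46 to 0.14, as descriptions over the same 12 libraries.

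The adaptors were set against Ncr1 and against Lyz2, the lysozyme gene of monocytes, macrophages and neutrophils. Fcer1g went with Lyz2 at r = 0.97 (adjusted permutation p = 9e-05, unadjusted 1e-05, the smallest possible) and rho = 0.97 (adjusted permutation p = 9e-05, unadjusted 1e-05). Tyrobp went with Lyz2 at r = 0.92 (adjusted permutation p = 0.000135, unadjusted 3e-05) and rho = 0.90 (adjusted permutation p = 0.00099, unadjusted 0.00022). Without the 2 libraries r with Lyz2 was 0.94 for Fcer1g (permutation p = 7e-05, n = 10) and 0.84 for Tyrobp (permutation p = 0.00346, n = 10). Within day 2 and day 1 it was 0.99 and 0.97 for Fcer1g and 0.97 and 0.89 for Tyrobp.

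Against Ncr1 the adaptors had r = 0.81 for Tyrobp (adjusted permutation p = 0.00754, unadjusted 0.0067) with rho = 0.45 (adjusted permutation p = 0.165, unadjusted 0.147), and r = 0.74 for Fcer1g (adjusted permutation p = 0.00754, unadjusted 0.00639) with rho = 0.52 (adjusted permutation p = 0.126, unadjusted 0.0838). Within day 2 and day 1, each of which holds 1 of the 2 low libraries, these were 0.88 and 0.81 for Tyrobp and 0.89 and 0.67 for Fcer1g. Without the 2 libraries r was -0.08 for Tyrobp (permutation p = 0.821, n = 10) and 0.06 for Fcer1g (permutation p = 0.869, n = 10), so both relations rest on those libraries, and leaving out either one alone also lost both calls. The relations with Lyz2 did not rest on them. Lyz2 itself ranged from 164.6 to 722 CPM.

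**Figure D4:**
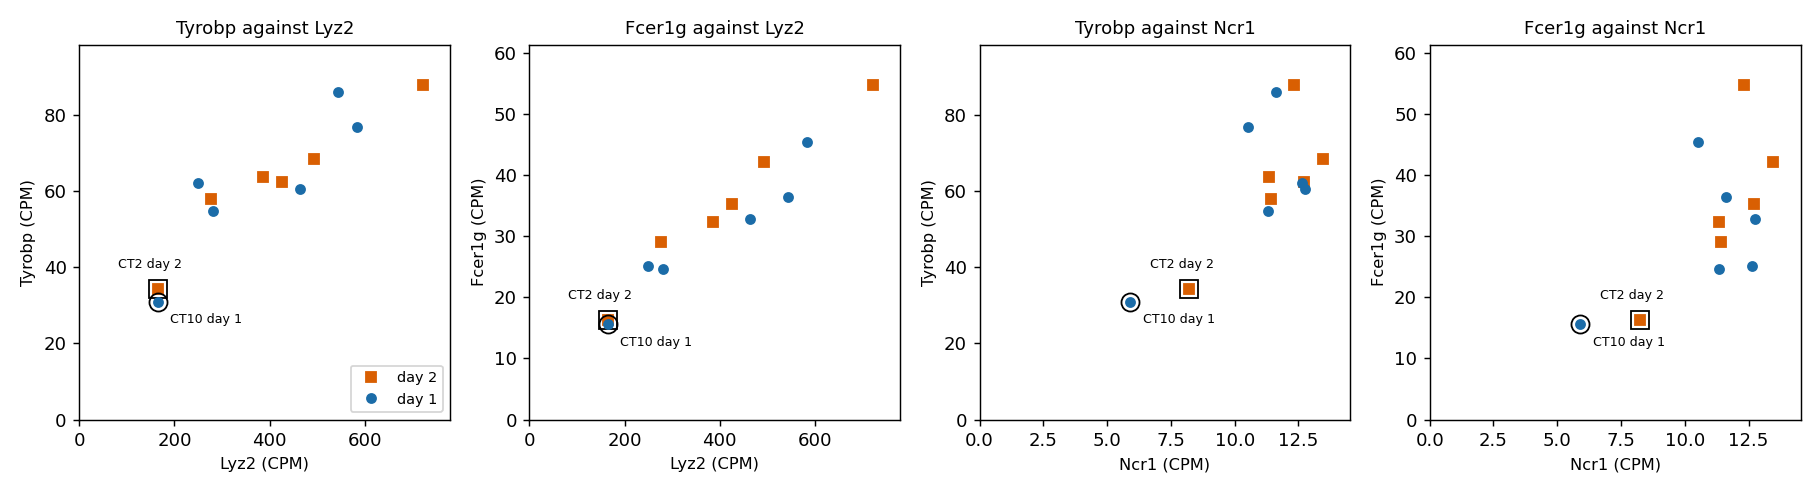
CPM of the adaptors Tyrobp and Fcer1g against CPM of Lyz2 (left panels) and of Ncr1 (right panels), 1 library per point, squares for day 2 and circles for day 1, with rings around CT2 of day 2 and CT10 of day 1. Over Lyz2 the points rise along the whole range, while over Ncr1 the 10 libraries without a ring lie between 10.5 and 13.5 CPM of Ncr1 at any level of the adaptors.

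The genes with the most similar profiles over the 12 libraries were listed for each gene from 9642 genes of at least 5 CPM. For Ncr1 they were Gzmb, Samd3 and Gzma (r = 0.94, 0.93 and 0.92), of which Gzma and Gzmb encode granzymes, the proteases of cytotoxic granules. For Klrd1 they were Ms4a4b, Lrrcc1 and Pcmtd1 (0.96, 0.95 and 0.93), for Klrk1 Ckap2l, Hlx and Prnp (0.95, 0.94 and 0.94), and for Klrc1 Me2, Gzmm and Tada2a (0.89, 0.87 and 0.86). For Tyrobp they were Ftl1, Aif1 and Anxa2 (0.99, 0.97 and 0.97), and for Fcer1g Clec4a3, Lgals3 and Clec4a1 (0.99, 0.98 and 0.98). Aif1 and the Clec4a genes are known from macrophages and other myeloid cells. Klrb1c was nearest to Samd3 and Klre1 to Gzmb (0.89 and 0.92), while Klra4 was nearest to Slc46a3 and Klra8 to Cyb561a3 (0.93 and 0.96). These are the highest of many correlations and are descriptions only.

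The opposite strand of Klrk1 carried many reads. The deposited counts keep strand, and reads on the opposite strand of a gene made up a median of 2.74% over all tested genes. For Klrk1 they made up 36.3% to 57.9% of its counts on both strands, with a median of 43.4%. There were 636 to 936 such counts per library, against 681 to 1185 on the strand of Klrk1, and the opposite strand was higher in 2 libraries, CT2 of day 2 and CT10 of day 1. Of all tested genes, 6.26% had at least as high a share. The other 9 genes had medians from 0.80% to 2.63%. Of the genes whose positions were taken from GENCODE M21 here, none lies on that strand within Klrk1. The nearest of them from the family on the plus strand is Klrd1, which ends upstream of Klrk1 on that strand.

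The opposite-strand counts of Klrk1 were not low in the libraries in which Klrk1 was low. They correlated with Klrk1 at r = -0.26 (adjusted permutation p = 0.512, unadjusted 0.41) and rho = -0.13 (adjusted permutation p = 0.749, unadjusted 0.685). With Klrd1 they had r = 0.69 (adjusted permutation p = 0.0317, unadjusted 0.0127) and rho = 0.55 (adjusted permutation p = 0.117, unadjusted 0.0705). With both CT14 libraries left out, as farthest from the Klrd1 median, r was 0.22 (permutation p = 0.538, n = 10), so the relation with Klrd1 rests on them. In day 2 alone it was 0.89, and in day 1 alone 0.42. These belong to 5 relations added after the values were seen. The others were Klrd1 with Klrk1 (r = -0.07, permutation p = 0.824, adjusted 0.824), Klrd1 with Klrc1 (r = 0.39, permutation p = 0.212, adjusted 0.353) and the granzyme gene Gzma with Klrk1 (r = 0.91, permutation p = 0.00093, adjusted 0.00465). Their rho values were 0.10, 0.59 and 0.74 (permutation p = 0.749, 0.0483 and 0.00763). Gzma with Klrk1 also rested on CT2 of day 2 and CT10 of day 1, with r = 0.43 without them.

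**Figure D5:**
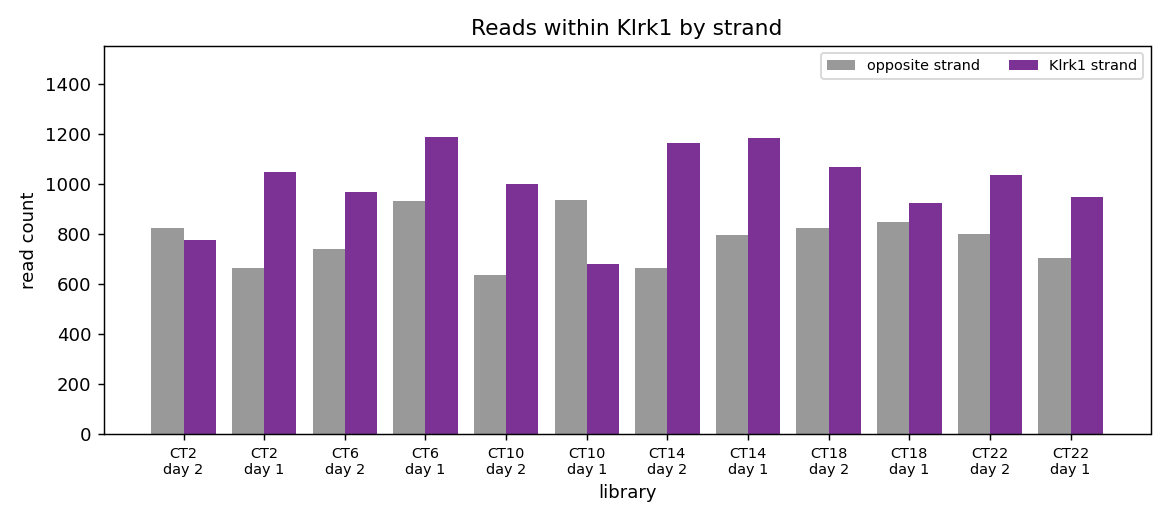
Read counts on the strand opposite to Klrk1 and on the strand of Klrk1 in each library, ordered by circadian time with day 2 left of day 1, on an axis that starts at 0. The opposite strand is the taller bar in CT2 of day 2 and CT10 of day 1 only.

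The rest of the pathway was counted from lists. Of 17 tested other Klr genes, 12 other NK surface receptors, 17 adaptor and signalling genes, 7 ligand genes and 18 factors and effectors, 0 passed the 24 h test or the test of times in edgeR. At an unadjusted p under 0.05 in the 24 h test these were 1, 5, 7, 1 and 3 genes, where 13.3% of all tested genes were, and in the test of times 1, 4, 6, 1 and 5 genes, where 12.7% were. Klra7, which encodes the inhibitory Ly49G, was the most abundant of the listed Klr genes with 16.8 ± 3.13 TPM (SD, n = 12), above Klrc1 in mean level. The list leaves out Klra13-ps, a pseudogene of the family with 86.8 ± 13.4 TPM. Klra2 had the largest swing of the named Klr genes, from 0.86 TPM in CT10 of day 1 to 7.93 TPM in CT22 of day 2, with an amplitude of 0.97 ± 0.26 log2 and a peak at 22.0 h (adjusted p = 0.249, edgeR).

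Of the 12 other NK surface receptors, the 3 of highest level are also known from T cells. Il2rb, a chain of the interleukin 2 and 15 receptors, had 151 ± 14.0 TPM, Cd96 143 ± 9.69 TPM and Cd7 108 ± 8.02 TPM (SD, n = 12). In the same list Cd244a averaged 4.88 TPM, and 5 of the 12 (Cd244a, Tigit, Slamf7, Fcgr3 and Il12rb2) had CT10 of day 1 and CT2 of day 2 as their lowest libraries, against 10.2% of all tested genes. Cd96 had an amplitude of 0.14 ± 0.04 log2 with a peak at 4.57 h (adjusted p = 0.251, edgeR). Among the signalling genes, Sh2d1a, the adaptor SAP of SLAM family receptors, had the smallest p in the 24 h test, with an amplitude of 0.18 ± 0.04 log2 and an adjusted p of 0.238 in edgeR. Of the ligands and their light chain, B2m stood at 4345 ± 289 TPM and H2-K1 at 2501 ± 145 TPM, and Ulbp1, a ligand of NKG2D, at 12.5 ± 2.00 TPM. Among effectors, Ccl5 had 609 ± 94.5 TPM and Nkg7 445 ± 18.9 TPM, and Gzmk, a granzyme of memory CD8+ T cells, had 1.46 ± 0.76 TPM with its highest level in CT2 of day 2 (3.13 TPM). The NK marker Eomes, a T-box factor of NK cells and memory CD8+ T cells, had 36.3 ± 3.01 TPM.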

How the data were processed

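For each of the 12 libraries the authors deposited STAR read counts by gene and an RSEM table with expected counts (estimates, not always whole), the posterior standard deviation of the count, and TPM. The deposited TPM values are scaled to transcript length and to a fixed sum in each library. Reads on GRCm38 passed through STAR 2.5.1b and RSEM 1.2.28 after bcl2fastq 2.19 and Trimmomatic 0.35, all per the submitters' processing notes. The annotation behind the files is not given in the sources used here. Libraries were made with a KAPA HyperPrep kit and polyA selection, per the labels' protocols.

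Column 4 of the count tables, the strand of the gene, was used, and column 3 as the opposite strand. Rows without a gene name (29.3% to 31.2% of fragments) were dropped. All 10 identifiers matched GENCODE M21 with the same version, and promoter sequences are from RefSeq on GRCm38.p6. Counts were tested with edgeR 4.0.16 in R 4.3.3 (quasi-likelihood F tests, TMM factors, filterByExpr, Benjamini-Hochberg over 16396 genes, threshold 0.05). All 10 genes passed the filter. Expected counts were rounded to whole numbers for their alternative. The common biological coefficient of variation was 0.107. Correlations used log2 CPM with a prior count of 2 and 100000 permutations. Tests were checked on simulated counts of 16396 genes.

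The labels' replicate number is the day of collection and so pairs the libraries of 1 day. Deviations between days correlated from -0.60 to 0.35 over 15 pairs of times (median 0.08). Same-time libraries differed beyond counting noise (chi-square per degree of freedom 3.07 at CT18 to 40.2 at CT2, with 10.6 at CT6 the next highest). At CT2 the library of day 1 was also unusual, with the lowest TMM factor, 0.959, and the lowest Cd3e, 357 TPM. Where nothing says that samples came from separate animals, p-values measure only the spread between samples, which may be technical.

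The 10 genes and the lists of other genes were chosen with earlier results of these data known. The rule for other genes named the 3 highest mean TPM and the 2 smallest p in the 24 h test or the test of times in each list, and only some of these are given. Alternatives were DESeq2 1.42.0 and its size factors, no filter, limma 3.58.1 on log2(TPM + 0.5) or log2(TPM + 0.1), expected counts, left-out libraries and the day as a block. Leaving out CT10 of day 1 with CT2 of day 2 was added after the data were seen.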

Additional observations from a re-analysis of the deposited data

Results flagged for a closer look

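Ncr1 was lowest on day 1 in CT10 at 5.91 CPM, where the next library had 10.5 CPM, and Klra4 was lowest in the same library at 1.52 CPM, where the next had 3.27 CPM. In each case the gap to the next of the 6 libraries of the day was a large part of the whole range. In all, 20 groups of 6 libraries were checked, and chance alone gives such a gap in about 1 group in 20.

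Reads on the opposite strand, which entered none of the tests of time or day, were above the level of 3 counts in all 12 libraries for 4 of the 10 genes. Their median share of the counts on both strands was 43.4% for Klrk1, 2.63% for Tyrobp, 1.66% for Fcer1g and 0.83% for Klrd1. Over all tested genes the median was 2.74%, so Klrk1 alone of these 4 stood above it.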

How the results depend on the processing

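The number of the 10 genes past the 24 h test was 1 with no low-count filter and without both CT2 libraries (Fcer1g, where 323 of 29911 and 431 genes were called) and 1 without CT10 of day 1 and CT2 of day 2 (Tyrobp). For the test of times it was 5 with no filter (Ncr1, Klra8, Klrd1, Tyrobp and Fcer1g, where 2146 of 29911 genes were called). It was 1, Klrd1, by DESeq2 (where 516 of 16396 genes were called) and without both CT2 libraries (where 527 of 16275 were). For the day test it was 1 without CT10 of day 1 and CT2 of day 2 (Fcer1g, 0.39 log2, adjusted p = 0.0238 in edgeR, where 16 of 16912 genes were called). Leaving out 1 library at a time gave 0 genes for the 24 h test, the day test and the test of a different wave between days. In the test of times it leaves 1 library at that circadian time, so those calls are not given. The causes were not tested. With the day as a replicate block 0 genes passed the 24 h test and 0 the test of times, no call changed, and the correlation of Ncr1 and Klrk1 was 0.92 with day means subtracted. Without CT10 of day 1 and CT2 of day 2 the correlations with Ncr1 were 0.62 for Klrb1c, 0.46 for Klrd1, 0.38 for Klrk1, 0.67 for Klrc1, -0.080 for Tyrobp and 0.060 for Fcer1g, and that of Klra4 and Klra8 was 0.26. Leaving out 1 library at a time, those with Ncr1 ranged from 0.46 to 0.86 for Klrc1, 0.65 to 0.85 for Tyrobp, 0.61 to 0.80 for Fcer1g and -0.18 to 0.056 for Klrd1. The one with Klrd1 was 0.24 in log2(TPM + 0.5) and 0.15 in expected counts. The relations of Lyz2 with both adaptors kept direction and side of the threshold in every alternative run. The span of the NK-restricted sum was 1.5 to 2.02 with 1 library left out, and that of the shared receptors 1.22 to 1.29, or 1.33 in TPM.

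Small unadjusted effects changed sign. Projected on the main peak, the amplitude was -0.090 log2 for Klra8 without CT14 and -0.026 for Klrk1 without CT10 of day 1 and CT2 of day 2, and -0.064 to 0.081 for Klrk1 with 1 library left out. The log2 day difference was -0.0068 for Klre1 without CT10 of day 1 and CT2 of day 2, 0.059 for Klra4 and 0.033 for Klra8 without CT2, and in log2 TPM 0.028 for Klra8 with a pseudocount of 0.5, filtered or not, 0.033 with 0.1, and 0.0031 for Klrd1. With 1 library left out it ranged from -0.033 to 0.21 for Ncr1, -0.056 to 0.13 for Klre1, -0.26 to 0.032 for Klra4, -0.23 to 0.096 for Klra8, -0.066 to 0.0019 for Klrd1, -0.051 to 0.13 for Klrk1, -0.034 to 0.13 for Klrc1 and -0.083 to 0.24 for Tyrobp. The correlation of Klrd1 and Klrk1 was 0.196 in log2 TPM, 0.18 in expected counts, 0.52 without CT10 of day 1 and CT2 of day 2 and -0.18 to 0.13 with 1 library left out. That of Klrk1 and its opposite strand was 0.41 without the 2 libraries and -0.44 to 0.038 with 1 left out. Counting depth limits Klra4 and Klra8 most, whose counting error alone gives a coefficient of variation of 11.1% and 10.0%.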

Other observations

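The B cell markers, which are no receptor or adaptor gene described above, summed to 139 ± 20.03 CPM on day 2, against 191 ± 20.01 CPM on day 1 (SD, n = 6). Of the 5, all had an unadjusted p under 0.05 in edgeR's day test where 1.82% of all tested genes did, and 0 passed after adjustment. Neutrophil markers, whose cells also use both adaptors, spanned 8.86-fold in summed CPM, lowest in CT2 of day 2 and highest in CT22 of day 2. Mast cell and basophil markers, which share Fcer1g, ranged from 37.8 CPM in CT14 of day 2 to 90.4 CPM in CT2 of day 1, and 0 of these 5 genes had CT10 of day 1 and CT2 of day 2 as their lowest libraries.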
